A study of Homo sapiens with 6 samples.

Results

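The integrated stress response was followed through 10 genes in cells labelled as HCT8, an established human colorectal cancer cell line. The genes were ATF4, ATF5, DDIT3, CEBPB and CEBPG, which encode transcription factors, and ASNS, CHAC1, TRIB3, DDIT4 and SESN2, which encode effectors. All 10 were found by symbol among the 60664 gene rows of the count table, and all passed the low-count filter that left 17638 genes. The set was selected on measured levels in these libraries, because ATF5 stood higher, and ASNS and DDIT4 lower, in cells that overexpress GPT1. The difference between the groups was thus used to choose the genes, and for these 10 it is given as a description, with no test. mRNA was sequenced from 6 libraries. The control group (3 libraries, genotype given as WT) received a control plasmid, and the GPT1 group (3 libraries) a plasmid for GPT1 overexpression. All cells were grown in DMEM with serum. The sources used here give neither the promoter of the plasmid nor the time after transfection. GPT1 (symbol GPT) is an alanine aminotransferase of the cytosol, which moves the amino group of alanine to alpha-ketoglutarate.

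The integrated stress response begins when a kinase phosphorylates the initiation factor eIF2. The kinases sense unfolded protein in the endoplasmic reticulum, lack of amino acids, heme deficiency or double-stranded RNA. General translation then slows, while short upstream reading frames in the ATF4, ATF5 and DDIT3 mRNAs let more of these proteins be made. ATF4 pairs with C/EBP factors on composite DNA elements and activates genes of amino acid synthesis, amino acid import and stress defence. Because much of this control is translational, the level of an mRNA does not give the level of its protein. No protein or phosphorylation was measured here.

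Total counts ran from 21255655 in control replicate 3 to 32487217 in control replicate 1. GPT had 3 to 14 counts in the control libraries and 96886 to 106063 in the GPT1 libraries. Of the 17638 tested genes, 4430 (25.1%) were called at a Benjamini-Hochberg adjusted p under 0.05 by edgeR's quasi-likelihood fit, 1858 higher and 2572 lower with GPT1. The number was 2565 without control replicate 1, 1586 without GPT1 replicate 1 and 1443 without GPT1 replicate 3. After a correction of each library for transcript length and GC content, 3280 genes were higher and 2783 lower, so that 45.9% of the called genes were lower instead of 58.1%. The summed level of 12 intestinal epithelial markers was 886 to 1039.9 CPM (counts scaled to the library's total) in the controls and 562 to 633 CPM in the GPT1 libraries. 8 of the 9 that could be tested fell, the exception being CDX2, and KRT20, CDX1 and GPA33 were near 0 in both groups. 9 neural and kidney-line markers summed to 432 to 515 and 207 to 212 CPM, most of it from the neurofilament genes NEFM and NEFL, which fell with MAP2 (3 of 8 tested). Some intestinal markers were thus near 0 and neurofilament transcripts were abundant in the controls. The intestinal list as a whole still summed higher than the neural and kidney-line list in every library. The identity of the line cannot be settled from these markers and was not tested. In the fibroblast list 2 of 5 tested rose (LUM and ACTA2), with sums of 50.5 to 53.7 and 60.9 to 62.4 CPM and THY1 and FAP at 0 counts. Endothelial markers summed to at most 0.951 CPM in any library and had too few counts for a test. The part of these markers in the results on stress genes was not tested. In such bulk samples, fewer cells of a kind and less RNA per cell cannot be told apart. No source states that the 3 libraries of a group came from separate cultures, so the spread between them may be technical.

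Promoter sequences of the 10 genes were examined for the element that ATF4 binds. RefSeq promoter windows (GRCh38.p14) matched all 10 symbols, and the 250 bases before each annotated start were searched on both strands. The core of the C/EBP-ATF response element, searched as TGATGNAA, was found before ASNS, CHAC1 and CEBPG, that is 3 of 10 genes. It occurred before 3.89% of 27305 genes and in 3.15% of all 34943 windows. The stretches that hold it are shown with the match in capitals, 5′ to 3′ on the strand of the gene.
ASNS: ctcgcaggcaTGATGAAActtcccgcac
CHAC1: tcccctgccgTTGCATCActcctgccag
CEBPG: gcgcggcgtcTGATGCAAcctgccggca
The ASNS stretch lies at chr7:97872459-97872486 on the minus strand, with the match beginning 68 bases before a start. The CHAC1 stretch is at chr15:40953252-40953279 on the plus strand, 209 bases before the start, and holds the element in reverse orientation. The CEBPG stretch is at chr19:33374061-33374088 on the plus strand, 42 bases before the second of its annotated starts. The ASNS and CHAC1 matches fall inside exons of longer GENCODE 29 transcripts, and the CEBPG match does not. The hypoxia response element core, searched as ACGTG, was found before DDIT4 and ATF4, that is 2 of 10 genes, near the share of 21.7% of all genes. The DDIT4 stretch is shown only because DDIT4 is also a known target of hypoxia-inducible factor.
DDIT4: aacgttgcttACGTGcgcccggagt
It lies at chr10:72273789-72273813 on the plus strand, 125 bases before the start and outside exons. The AP-1 site, searched as TGANTCA, occurred before ATF5 and DDIT3 and before 8.06% of all genes. The CCAAT box, searched as CCAAT, occurred before 6 of the 10 members and 37.0% of genes. These are matches of letters and not measured binding. ASNS, CHAC1 and CEBPG, which share the element, stood at log2 fold changes of -1.10, -0.16 and -0.20. The groups overlapped in CHAC1 and CEBPG. ATF5, SESN2 and DDIT4, at 1.52, 0.56 and -0.84, had no match to it. The same contrast chose the genes, so nothing is read from these values.

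**Figure D1:**
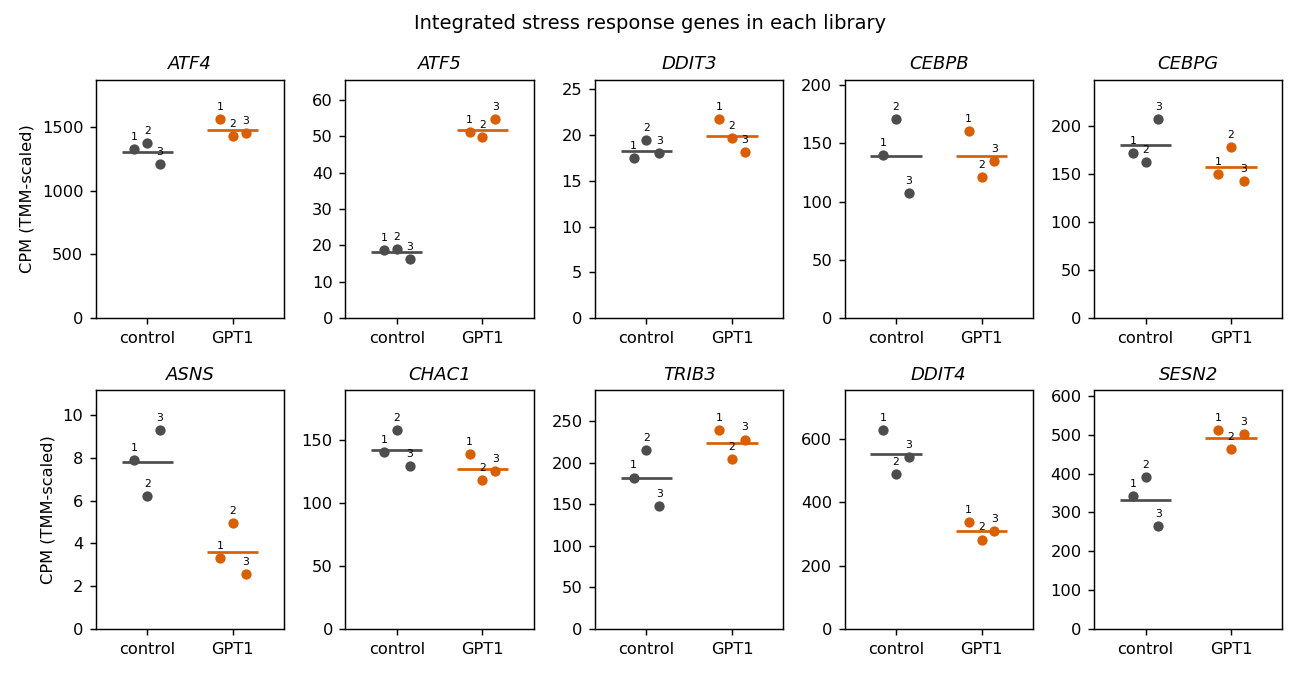
Level of each of the 10 genes in CPM, scaled by TMM library sizes, in the 3 control and the 3 GPT1 libraries. Each point is a library with its replicate number, and the line is the group mean. ATF4, ATF5 and SESN2 lie above the controls in all GPT1 libraries and DDIT4 and ASNS below them, while the other 5 genes overlap.

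ATF4, the main effector of the response, was the most abundant of the 10 transcripts and differed little. ATF4 (ENSG00000128272, GRCh38 chromosome 22, 39519695 to 39522685, plus strand) stood at 1324, 1370.4 and 1204 CPM in control replicates 1 to 3 and at 1557, 1425 and 1452 CPM in GPT1 replicates 1 to 3. Every GPT1 library lay above every control library, but the nearest pair was close. The log2 fold change was 0.19 ± 0.08 (SE), or 1.14-fold, and 0.04 ± 0.05 after the length and GC correction.

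ATF5, a bZIP factor whose translation is also raised by eIF2 phosphorylation, showed the largest difference of the set. ATF5 (ENSG00000169136, chromosome 19, 49928702 to 49933935, plus strand) stood at 18.8, 19.1 and 16.3 CPM in the controls and at 51.2, 49.7 and 54.6 CPM in the GPT1 libraries. The groups were far apart, with a coefficient of variation of 8.64% among the controls and 4.83% with GPT1. Its log2 fold change was 1.52 ± 0.11 (SE), or 2.86-fold, and it ranked 385th by absolute size among the tested genes. NUP62, which overlaps ATF5 on the opposite strand and whose reads cannot be told apart from it where strand was not used in counting, stood at 186 ± 13.99 and 180.4 ± 6.33 CPM (SD, n = 3 per group). IL4I1, the other overlapping gene with counts, was at 1.04 and 0.780 CPM.

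DDIT3, which encodes the pro-apoptotic factor CHOP and is a classical ATF4 target, stood near ATF5 in the controls as CPM. Divided by transcript length it stood higher, at 17.2 beside 8.74 CPM per kb. DDIT3 (ENSG00000175197, chromosome 12, 57516588 to 57521737, minus strand) had 17.5, 19.4 and 18.0 CPM in the controls and 21.7, 19.7 and 18.1 CPM in the GPT1 libraries. The groups overlapped, with a log2 fold change of 0.12 ± 0.12 (SE) that turned to -0.08 ± 0.08 after the length and GC correction. DDIT3 overlaps the far more abundant methionyl-tRNA synthetase gene MARS1 (661 and 596 CPM) on the opposite strand, so its count is uncertain.

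CEBPB and CEBPG encode C/EBP factors that pair with ATF4. CEBPB (chromosome 20, 50190734 to 50192689, plus strand) stood at 139.8, 171 and 107 CPM in the controls and 161, 122 and 135 CPM in the GPT1 libraries. Its group means were 139.2 and 139.2 CPM, and the spread among the controls, 22.8% of the mean, was the widest for any of the 5 factor genes. CEBPG (chromosome 19, 33373330 to 33382686, plus strand) stood at 172, 162 and 207 CPM in the controls and 149.9, 178 and 143 CPM in the GPT1 libraries. The ranges overlapped, and the log2 fold change was -0.20 ± 0.11 (SE). After the length and GC correction CEBPB was at -0.11 and CEBPG at -0.08.

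ASNS, which encodes asparagine synthetase and is the standard reporter of ATF4 activity, had the lowest measured level of the 10, and a lower one still with GPT1. ASNS (ENSG00000070669, chromosome 7, 97852118 to 97872542, minus strand) was counted 259, 196 and 201 times in control replicates 1 to 3, and 103, 151 and 79 times in GPT1 replicates 1 to 3. As CPM this was 7.92, 6.22 and 9.30 against 3.32, 4.95 and 2.58. The groups did not overlap, although control replicate 2 and GPT1 replicate 2 were near each other. The log2 fold change was -1.10 ± 0.23 (SE), with a range of -1.38 to -0.91 when each library was left out in turn. The counts are small, and the coefficient of variation in the GPT1 libraries, 33.5%, was the widest of the set. A processed transcript, ENSG00000284707, overlaps ASNS on the same strand. It was counted 5, 15 and 15 times in control replicates 1 to 3, and 5, 11 and 16 times in GPT1 replicates 1 to 3. How reads shared by the 2 were assigned is not known, so the level of ASNS may be too low. Its fold change rests on the same counts and may not describe the whole ASNS mRNA. The part of this overlap was not tested.

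CHAC1, a glutathione-degrading enzyme, and TRIB3, a pseudokinase that restrains ATF4 and CHOP, are both direct targets of the pathway. CHAC1 (chromosome 15, 40952962 to 40956519, plus strand) stood at 140.2, 158 and 129 CPM in the controls and 139, 118 and 125 CPM in the GPT1 libraries. TRIB3 (chromosome 20, 362835 to 397559, plus strand) stood at 182, 216 and 147 CPM in the controls and at 239, 204 and 228 CPM in the GPT1 libraries. In both genes the groups overlapped, with log2 fold changes of -0.16 ± 0.10 for CHAC1 and 0.30 ± 0.13 for TRIB3 (SE). These 2 ATF4 targets thus stood on different sides of 0. After the length and GC correction the values were -0.30 ± 0.05 and 0.21 ± 0.07, and without control replicate 2 that of TRIB3 was 0.44.

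DDIT4 and SESN2 encode inhibitors of the growth kinase complex mTORC1, and they differed in opposite directions. DDIT4, also called REDD1 and induced by hypoxia, glucocorticoids and energy stress as well as ATF4, lies on chromosome 10 (72273920 to 72276036, plus strand). It stood at 627, 490.2 and 542 CPM in the controls and at 336, 282 and 309.6 CPM in the GPT1 libraries. All GPT1 libraries lay below all controls, with a log2 fold change of -0.84 ± 0.11 (SE), a 1.79-fold lower level. SESN2, sestrin 2, a leucine sensor that is also a p53 target, lies on chromosome 1 (28259527 to 28282491, plus strand). It stood at 342, 391 and 266 CPM in the controls and at 512, 462 and 503 CPM in the GPT1 libraries. Here all GPT1 libraries lay above all controls, with a log2 fold change of 0.56 ± 0.12 (SE), or 1.48-fold. The corrected values were -1.01 ± 0.09 for DDIT4 and 0.53 ± 0.08 for SESN2.

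Of the 10 genes, ATF5 and SESN2 were higher and DDIT4 and ASNS lower past the threshold of the fit to all genes, beside 25.1% of all tested genes called in either direction, 10.5% higher and 14.6% lower. The ranges of the groups did not overlap in 5 of the 10, beside 43.4% of all tested genes. In 3 the GPT1 libraries lay above (21.2% of all) and in 2 below (22.2%). Since this contrast chose the genes, nothing is read from these counts. The median log2 fold change of the 10 was 0.058, beside -0.02 for all tested genes. After the length and GC correction both changed sign, to -0.079 and 0.013.

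**Figure D2:**
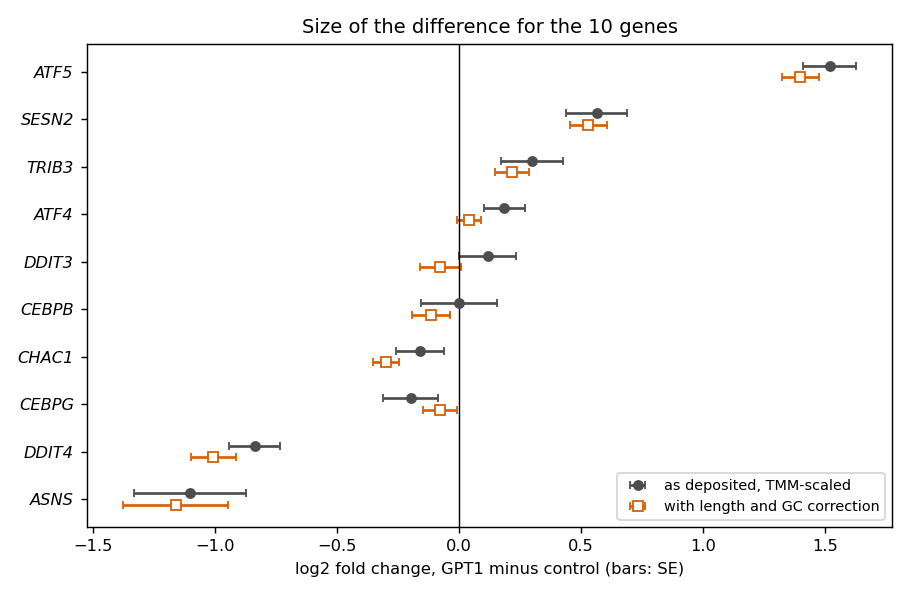
Log2 fold change of the 10 genes, GPT1 minus control, with its standard error. Filled circles are the TMM-scaled fit and open squares the fit with a correction of each library for transcript length and GC content. ATF5 (1.52) and SESN2 (0.56) lie at the upper end and DDIT4 (-0.84) and ASNS (-1.10) at the lower end with either fit.

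Levels of different genes were compared as CPM per kb of the longest GENCODE 29 transcript. In the controls ATF4 stood highest at 644 ± 42.5 CPM per kb (SD, n = 3), at the 99.7th percentile of tested genes. DDIT4 followed with 316 ± 39.5 CPM per kb, and its range did not touch that of the third, SESN2, at 96.5 ± 18.3 CPM per kb. SESN2, CHAC1 (77.0 ± 7.80), TRIB3 (72.7 ± 13.7) and CEBPB (71.2 ± 16.2 CPM per kb) were each within the spread of the next. Below them CEBPG (43.8 ± 5.71), DDIT3 (17.2 ± 0.947), ATF5 (8.74 ± 0.754) and ASNS (3.32 ± 0.653 CPM per kb) had ranges apart from each other. ASNS, whose level may be too low because of the overlapping transcript, lay at the 42.5th percentile, below the middle of all tested genes. In contrast, 7 of the members lay above the 90th.

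In the GPT1 libraries the order per kb changed at a few places. ATF5, at 25.05 ± 1.21 CPM per kb (SD, n = 3), passed DDIT3 at 18.6 ± 1.67, and their ranges were apart. DDIT4, at 177 ± 15.5 CPM per kb, came nearer to SESN2 at 143 ± 7.60 but stayed above it in range. CHAC1 (68.9 ± 5.74) moved below TRIB3 (89.5 ± 7.09) and CEBPB (71.2 ± 10.2 CPM per kb), and it overlapped CEBPB in range. ASNS (1.53 ± 0.514 CPM per kb) remained last as counted, at the 31.1th percentile, with the same limit from the overlapping transcript. With lengths taken over all annotated exons, CEBPB came ahead of CHAC1 and TRIB3 in the controls, and of TRIB3 in the GPT1 libraries. The order was otherwise the same.

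Within each group the members varied together by library. Control replicate 2 was the highest control for 7 members (ATF4, ATF5, DDIT3, TRIB3, CHAC1, SESN2 and CEBPB), and control replicate 3 the lowest for 6 of them, DDIT3 being the exception. ASNS and CEBPG went the other way, with their highest control value in replicate 3. Among the GPT1 libraries, replicate 1 was the highest for 7 members and replicate 2 the lowest for 7, again with ASNS and CEBPG highest in replicate 2. ASNS (47.0% GC) and CEBPG (43.9% GC) had the lowest GC content of the members, and CEBPB (66.2% GC) the highest. Across all tested genes, the deviation of control replicate 3 from its group mean correlated with GC content at a Spearman rho of -0.63, and that of control replicates 1 and 2 at 0.45 and 0.48. For GPT1 replicates 1, 2 and 3 the values were 0.55, -0.56 and 0.05. The log2 fold change between the groups also followed transcript length and GC content, at a Spearman rho of -0.33 and 0.31 over 17436 genes. Genes are not independent replicates, so these are descriptions. The part of GC content in the members' spread was not tested.

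Genes with the pattern most like those of ATF5, ASNS and DDIT4 were found among 11727 genes with at least 5 CPM, by the root mean square difference of centred log2 CPM over the 6 libraries. Nearest to ATF5 were HLA-DRB1 (difference 0.118), a chain of MHC class II, HMOX1 (0.143), the heme-degrading heme oxygenase 1, and ADI1 (0.155), an enzyme of methionine salvage. HMOX1 stood at 115 ± 7.60 and 374 ± 19.0 CPM, and ADI1 at 36.01 ± 6.20 and 84.8 ± 2.39 CPM (SD, n = 3 per group). Reads of HLA-DRB1 may be shared with close paralogs. Nearest to ASNS were VASH2 (0.128), PLCB1 (0.144) and ZNF83 (0.149), which like ASNS had their highest GPT1 value in replicate 2. The genes nearest to DDIT4 were FRMPD3 (0.0536), NKX1-2 (0.0537) and SEMA6B (0.0572), which shared its order of control libraries with replicate 1 highest and replicate 2 lowest. These neighbours were picked for their likeness, and none of them received a test for it.

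The other genes of the pathway were taken from 11 lists, written with earlier results on these libraries known. Counted once each and without the 10 genes, 190 of their 195 genes could be tested. 24 rose and 31 fell (28.9% called, beside 25.1% of all tested genes), with a median log2 fold change of -0.02. The number called was 29, 19 and 19 without control replicate 1, GPT1 replicate 1 and GPT1 replicate 3, and 86 after the length and GC correction.

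**Figure D3:**
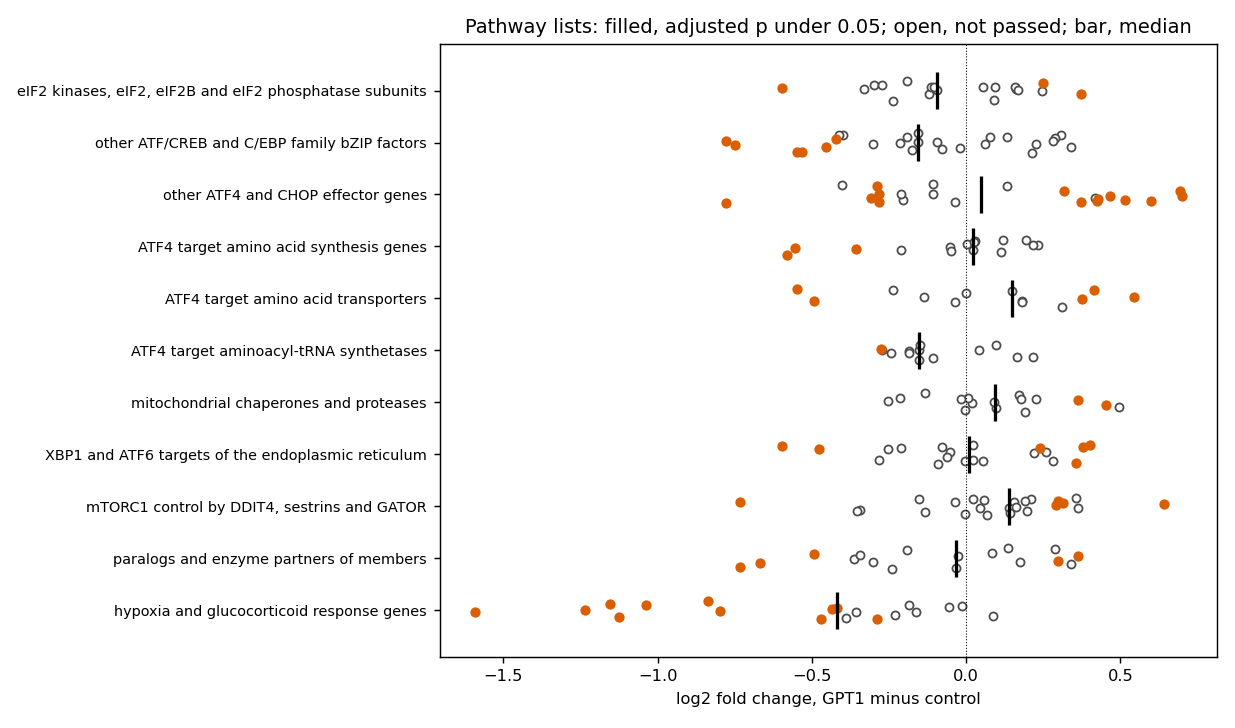
Log2 fold change, GPT1 minus control, of the tested genes in 11 pathway lists. Each point is a gene, filled where the edgeR adjusted p was under 0.05, and each bar is the median of its list. The medians lie between -0.16 and 0.15, except for the hypoxia and glucocorticoid list at -0.42.

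Few genes of eIF2, its exchange factor and its phosphorylation were called, and in both directions. PPP1R15A, the stress-induced subunit of the eIF2 phosphatase known as GADD34, rose from 284 ± 30.5 to 368 ± 19.1 CPM (SD, n = 3 per group; edgeR adjusted p = 0.019). EIF2B1, a subunit of the exchange factor eIF2B, rose from 82.3 ± 3.0 to 97.9 ± 3.06 CPM, and DNAJC3, which encodes the kinase inhibitor p58IPK, fell from 35.6 ± 5.43 to 23.5 ± 4.86 CPM. These were 3 of 19 tested genes, or 15.8% called, beside 25.1% of all tested genes. The median was -0.10, and 0.14 after the length and GC correction. The kinase genes EIF2AK1, EIF2AK2, EIF2AK3 and EIF2AK4, for the kinases HRI, PKR, PERK and GCN2, had log2 fold changes of -0.19, -0.24, -0.12 and -0.30 and did not pass. PPP1R15A and DNAJC3 lost their calls without GPT1 replicate 1 or 3 (edgeR adjusted p up to 0.080 and 0.0927). EIF2B1 lost its call when any library was left out (edgeR adjusted p up to 0.139). Without GPT1 replicate 1 or 3, 0 genes of the list passed in edgeR, and 1 rose without any single control library. 2 fell without control replicate 2 or GPT1 replicate 2. At an unadjusted p under 0.05, 3 were higher and 4 lower in all 6 libraries. After the length and GC correction 5 rose and 2 fell, DNAJC3 by 0.27 on the log2 scale.

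Among 26 tested genes listed with the ATF/CREB and C/EBP families and other bZIP factors, 6 fell and 0 rose. This was 23.1% called, beside 25.1% of all tested genes (14.6% lower), and the median of -0.16 was -0.03 after the length and GC correction. At an unadjusted p under 0.05 in edgeR 2 were higher, and 1 rose in DESeq2 and 0 in limma voom. ATF3, a repressor that ATF4 and many other stress signals induce, fell from 952 ± 99.1 to 554 ± 24.1 CPM (SD, n = 3 per group; log2 fold change -0.78 ± 0.09 SE; edgeR adjusted p = 0.00050). CREB3L2 (-0.42 ± 0.09), a membrane-bound factor of secretory cells, and CREB5 (-0.45 ± 0.11) fell as well. ATF2, CREB1 and CEBPZ were the other 3, with CEBPZ counted for its symbol and not as a bZIP factor. The call of CREB3L2 was lost without replicate 1 of either group (edgeR adjusted p up to 0.0601). That of CREB5 was lost without GPT1 replicate 1 or 3 (edgeR adjusted p up to 0.0758). CREB3L2 was at -0.27 and CREB5 at -0.03 after the length and GC correction. The number that fell was 3, 4, 1 and 2 without control replicate 1, control replicate 3, GPT1 replicate 1 and GPT1 replicate 3. 3 rose without control replicate 2, 2 without GPT1 replicate 2 and 3 with the correction. CEBPA and CEBPD, the C/EBP relatives of CEBPB, stood at 29.2 and 35.7 and at 4.56 and 5.83 CPM in controls and GPT1 libraries and did not pass.

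Further effectors of ATF4 and CHOP moved in both directions. Of 22 tested, 9 rose and 5 fell (63.6% called, beside 25.1% of all genes; median 0.05, corrected 0.19). CDKN1A, the cell-cycle inhibitor p21 and a p53 target, rose from 167 ± 19.7 to 269.96 ± 25.04 CPM, TNFRSF10B, the death receptor DR5, from 148 ± 14.5 to 199 ± 6.47 CPM, and the stress cofactor NUPR1 from 8.69 ± 0.855 to 13.2 ± 0.694 CPM (SD, n = 3 per group; edgeR adjusted p = 0.00188, 0.00895 and 0.00945). FGF21, INHBE, BBC3, SQSTM1, PPP1R15A and STC2 rose too, by 0.32 to 0.70 on the log2 scale. Those that fell were ATF3, GADD45A (-0.28 ± 0.07), RPS6KA2 (-0.28 ± 0.08), VEGFA (-0.29 ± 0.09) and ERO1A (-0.31 ± 0.10). CDKN1A, TNFRSF10B, BBC3 and GADD45A are also known p53 targets. Without GPT1 replicate 1 or 3, 5 and 4 genes rose. 1 gene fell without replicate 1 of either group or GPT1 replicate 3, 2 fell without GPT1 replicate 2, and 1 fell in the fit with replicate as a block. TNFRSF10B did not pass without GPT1 replicate 3 (edgeR adjusted p = 0.0542). GADD45A and RPS6KA2 did not pass without control replicate 1 or any GPT1 replicate (up to 0.106 and 0.132), and GADD45A was at -0.47 after the correction.

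The other amino acid synthesis genes under ATF4 included none that rose and a few that fell. PHGDH, PSAT1 and PYCR1, enzymes of serine and proline synthesis, stood at 1041, 658 and 619 CPM in the controls and 1063, 715 and 598 CPM in the GPT1 libraries and did not pass. Of 15 tested, 0 rose and 3 fell, 20% called beside 25.1% of all tested genes. The median was 0.02, and -0.05 after the length and GC correction. ALDH1L2, a mitochondrial folate enzyme, fell from 191 ± 18.7 to 130.3 ± 17.8 CPM, ASS1, argininosuccinate synthase, from 312 ± 23.5 to 244 ± 9.10 CPM, and BCAT1, the cytosolic branched-chain transaminase, from 144 ± 38.7 to 96.0 ± 13.6 CPM (SD, n = 3 per group; edgeR adjusted p = 0.0078, 0.014 and 0.029). ALDH1L2 fell by 0.24 and BCAT1 was at -0.07 after the length and GC correction, beside -0.55 and -0.58. At an unadjusted p under 0.05 in edgeR 3 were higher. 0 rose in DESeq2 and limma voom, and 2 rose with the correction. ASS1 lost its call without control replicate 1 and without GPT1 replicate 3 (edgeR adjusted p up to 0.064). BCAT1 lost it without GPT1 replicate 1 and without GPT1 replicate 3 (edgeR adjusted p up to 0.111). The number that fell was 1 without GPT1 replicate 3.

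Amino acid transporters of the pathway moved in both directions, 3 of 13 rising and 2 falling. This was 38.5% called, beside 25.1% of all tested genes (10.5% higher, 14.6% lower), with a median of 0.15 and a corrected one of 0.20. SLC6A9, the glycine transporter GlyT1, rose from 60.4 ± 10.5 to 88.1 ± 4.70 CPM, SLC3A2, the heavy chain of several exchangers, from 486 ± 52.8 to 648 ± 43.9 CPM, and the neutral amino acid transporter gene SLC1A4 from 69.3 ± 10.8 to 90.0 ± 6.21 CPM (SD, n = 3 per group; edgeR adjusted p = 0.012, 0.014 and 0.040). SLC7A11, the cystine transporter xCT, fell by 0.49 ± 0.15 and SLC36A4 by 0.55 ± 0.18 on the log2 scale (SE). After the length and GC correction SLC7A11 was at 0.06 and SLC36A4 at -0.06, and 7 genes rose and 0 fell. Without GPT1 replicate 1 0 rose, without GPT1 replicate 3 1 rose, and without control replicate 1 2 rose. 0 fell without control replicate 1, control replicate 3, GPT1 replicate 1 or GPT1 replicate 3. With a library left out, the edgeR adjusted p reached 0.0541, 0.0684, 0.161, 0.141 and 0.152 for SLC6A9, SLC3A2, SLC1A4, SLC7A11 and SLC36A4. In edgeR with all 6 libraries 4 were higher and 2 lower at an unadjusted p under 0.05.

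Among the aminoacyl-tRNA synthetases that ATF4 drives, AARS1, the alanyl-tRNA synthetase, was the only one of 13 called, and 0 rose. It fell from 732 ± 38.7 to 604 ± 25.9 CPM (SD, n = 3 per group; edgeR adjusted p = 0.030), and 7.69% of the list was called beside 25.1% of all tested genes. The median of the list was -0.15, and -0.03 after the length and GC correction. At an unadjusted p under 0.05 in edgeR 1 was higher and 2 lower, and DESeq2 and limma voom called 0 higher. AARS1 lost its call with replicate as a block and without control replicate 1, control replicate 2 or any GPT1 replicate (edgeR adjusted p up to 0.120). 2 fell without control replicate 3, and after the length and GC correction 5 fell and 1 rose.

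ATF5 is known as a factor of the mitochondrial unfolded protein response, so mitochondrial chaperones and proteases were listed beside it. HTRA2, a protease of the intermembrane space, rose from 71.8 ± 5.00 to 98.3 ± 3.41 CPM and TIMM17A, a subunit of the inner-membrane import channel, from 57.6 ± 6.23 to 73.9 ± 1.15 CPM (SD, n = 3 per group; edgeR adjusted p = 0.0064 and 0.024). These were 2 of 16 (12.5%), beside 10.5% of all tested genes called higher, and the median was 0.09 (corrected 0.14). 0 fell, and 0 were lower at an unadjusted p under 0.05 in edgeR or called lower in DESeq2 or limma voom. The chaperone genes HSPD1 and HSPA9 and the protease gene LONP1 stood at 565 and 563, at 765 and 776 and at 478 and 479.9 CPM and did not pass. The chaperone gene HSPE1 was higher, at 7.06 and 9.91 CPM, with a log2 fold change of 0.50 ± 0.17 (SE). Its groups overlapped, and it narrowly did not pass (edgeR adjusted p = 0.052). TIMM17A did not pass without replicate 1 of either group or GPT1 replicate 3, where its edgeR adjusted p reached 0.0982, and in each of these fits 1 gene rose. After the correction 6 rose and 1 fell.

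The XBP1 and ATF6 branches of the endoplasmic reticulum response had a median of 0.01 over 20 genes (corrected 0.05), with 30.0% called beside 25.1% of all tested genes. HSPA5, the chaperone BiP that marks this response, stood at 648 ± 24.9 and 647 ± 33.1 CPM (SD, n = 3 per group; log2 fold change -0.0025 ± 0.079 SE). The cochaperone genes CRELD2 (0.40 ± 0.11) and SDF2L1 (0.38 ± 0.11), the translocon gene SEC61B (0.36 ± 0.11) and MANF (0.24 ± 0.08) rose, and HSP90B1 (-0.48 ± 0.15) and DNAJC3 fell. After the length and GC correction SDF2L1 and SEC61B were at 0.18 and 0.15 and did not pass. Without replicate 1 of either group or GPT1 replicate 3, 0 genes rose, with edgeR adjusted p up to 0.105, 0.148 and 0.165 for CRELD2, SDF2L1 and SEC61B. 1 fell without control replicate 1 and 0 without GPT1 replicate 1 or 3, and HSP90B1 also lost its call without control replicate 3 (edgeR adjusted p up to 0.149) and was at -0.31 after the correction. In the fit with replicate as a block 1 rose.

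Other parts of mTORC1 control included 4 genes that rose and 1 that fell of 24 tested. This was 20.8% called, beside 25.1% of all tested genes, with a median of 0.14 (corrected 0.10). RRAGC, a Rag GTPase that recruits mTORC1 to lysosomes, rose from 13.0 ± 0.545 to 20.3 ± 1.69 CPM (SD, n = 3 per group; edgeR adjusted p = 0.0052). RRAGA (0.29 ± 0.08), TBC1D7 (0.31 ± 0.10), a subunit of the TSC complex, and SESN1 (0.30 ± 0.10), a sestrin under p53, rose by less. The third sestrin gene, SESN3, fell by 0.73 ± 0.21, and by 0.21 after the length and GC correction, where it did not pass. SESN2 was the most abundant sestrin, with 333 and 492 CPM beside 33.7 and 41.4 for SESN1 and 21.4 and 12.8 for SESN3, levels not divided by length. RRAGC rose when each library was left out (edgeR adjusted p up to 0.0279). RRAGA, TBC1D7, SESN1 and SESN3 did not pass without GPT1 replicate 1 or 3 (up to 0.134, 0.153, 0.138 and 0.111). RRAGA, TBC1D7 and SESN1 also failed without control replicate 1 or 2, TBC1D7 without every library in turn, and SESN1 without GPT1 replicate 2. 1, 2, 1 and 1 genes rose without control replicate 1, control replicate 2, GPT1 replicate 1 and GPT1 replicate 3, and 0 fell without the last 2. With the replicate block 1 rose, and 10 rose with the correction, where RRAGA was at 0.10.

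In the list of paralogs and enzyme partners, 2 of 17 rose and 3 fell, 29.4% called beside 25.1% of all tested genes, with a median of -0.03 (corrected -0.08). TRIB1, a pseudokinase paralog of TRIB3, fell from 52.8 ± 4.39 to 33.2 ± 0.479 CPM (SD, n = 3 per group; log2 fold change -0.67 ± 0.10 SE; edgeR adjusted p = 0.0016), whereas TRIB2 stood at 10.2 and 8.62 CPM and did not pass. GLS2, a glutaminase, fell by 0.49 ± 0.15, and GCLM, the modifier subunit of glutathione synthesis, rose by 0.36 ± 0.11 on the log2 scale. CHAC2, the paralog of CHAC1, stood at 22.6 ± 0.522 and 24.8 ± 0.437 CPM and did not pass. SESN1 and SESN3 belong to this list too. GLS2 and GCLM did not pass without control replicate 1, control replicate 2 or any GPT1 replicate (edgeR adjusted p up to 0.114 and 0.110). GCLM was at 0.72 after the correction. 0 genes rose without control replicate 1 or any GPT1 replicate, nor with the replicate block, and 1 rose without control replicate 2. 2 fell without control replicate 1 or 2 and 1 without GPT1 replicate 1 or 3.

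DDIT4 was set beside genes of the hypoxia and glucocorticoid responses, both known inducers of DDIT4, and beside genes induced by glucose. Of 19 tested, 11 fell and 0 rose (57.9% called, beside 14.6% of all genes lower; median -0.42). TXNIP and ARRDC4, arrestin-fold genes induced by glucose, fell from 106 ± 7.94 to 35.3 ± 1.46 and from 80.7 ± 18.5 to 34.3 ± 6.33 CPM (SD, n = 3 per group; edgeR adjusted p = 7.4e-06 and 0.0011). SLC2A1, the glucose transporter GLUT1, fell from 129 ± 17.4 to 73.9 ± 5.90 CPM (edgeR adjusted p = 0.0011). Other hypoxia-inducible genes that fell were ANKRD37 (-1.16), NDRG1 (-1.13), P4HA1 (-1.04), PDK1 (-0.47), BNIP3 (-0.43) and VEGFA (-0.29). The hypoxia genes ADM, CA9, EGLN3 and KDM3A were not among those called, and ADM lay above 0. The glucocorticoid-induced genes KLF9 (-0.84) and TSC22D3 (-0.42) fell, while FKBP5, PER1, ZBTB16 and SGK1 did not pass. DDIT4, at -0.84, lay inside the range of these genes. The genes of the list that fell had their lowest control value in replicate 2, like DDIT4, except VEGFA and TSC22D3, which had it in replicate 3. The share of all tested genes with this order was not counted, so nothing is read from it. The number that fell was 8 without replicate 1 of either group or GPT1 replicate 3, and 11 after the length and GC correction. 0 rose in any of the 16 alternatives, DESeq2 and limma voom among them, and 0 were higher at an unadjusted p under 0.05 in edgeR.

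**Figure D4:**
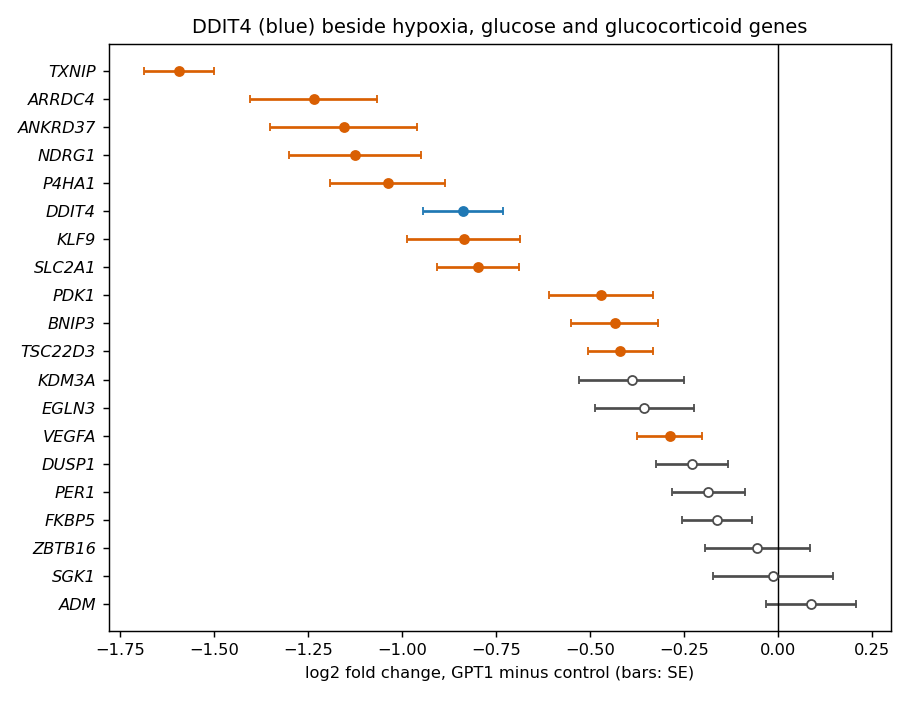
Log2 fold change, GPT1 minus control, with its standard error, of DDIT4 and 19 genes of the hypoxia, glucose and glucocorticoid list. Filled orange points passed an edgeR adjusted p of 0.05 and open points did not. DDIT4 (-0.84) (blue) lies between P4HA1 (-1.04) and KLF9 (-0.84), and ADM (0.09) is the only point above 0.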

How the data were processed

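The authors deposited whole-number, unnormalized counts of reads for each Ensembl gene in 6 libraries. Alignment used HISAT2 2.0 and GRCh38, per the submitters' processing notes. The tool, annotation and strand setting used to assign reads to genes were not given in any source used here. Symbols came from a name table (60652 of 60664 rows), and coordinates, lengths and GC content from GENCODE 29. Counts were fitted in R 4.3.3 with edgeR 4.0.16 (filterByExpr, TMM, glmQLFit, glmQLFTest, two-sided) over 17638 genes, with Benjamini-Hochberg adjustment and a threshold of 0.05. Standard errors came from the fold change and its F statistic. CPM used TMM-scaled library sizes. The correction fitted smooth functions of length and GC content of the longest transcript to each library (mgcv 1.9.3; 98.9% of genes). Other fits used DESeq2 1.42.0 and limma voom 3.58.1. The gene test was tested on simulated data. Replicate pairs had a chi-square per degree of freedom of 9.98 to 30.8, so all libraries were counted separately.

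The 10 genes and all lists were chosen with earlier results of these data known. Named genes were the 10, up to 3 called genes per list and direction with the smallest adjusted p, and 3 neighbours each of ATF5, ASNS and DDIT4. Others, such as PHGDH, PSAT1, PYCR1, HSPA5, HSPD1, HSPA9, LONP1, CHAC2, TRIB2, NUP62, MARS1, the kinase genes and the remaining called genes of lists, were named after their values were seen. The summed level of the leukocyte marker list is not reported here.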

Additional observations from a re-analysis of the deposited data

How the results depend on the processing

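The number of changed genes (4430) and of changed pathway genes (55) lay within 1.5 times of these values under other scaling factors, other filters, DESeq2 and limma voom, and 3886 and 43 passed with the replicate block. The replicate numbers come from sample titles, and same-numbered libraries deviated together with correlations of 0.24, -0.41 and -0.10, so the numbers were not taken to pair the samples. With the length and GC correction 86 pathway genes and 6 members passed, CHAC1 and TRIB3 among these members. Leaving out each library in turn gave 1443 to 4907 changed genes, 19 to 58 pathway genes and 4 to 5 members. CEBPB, near 0, changed sign with RLE factors (0.013), a minimum of 1 CPM in 3 libraries (0.0046), DESeq2 (0.013), limma voom (0.0075) and the replicate block (0.017), and ranged from -0.14 to 0.17 with a library left out. DDIT3 went to -0.0781 and SLC7A11 to 0.065 with the length and GC correction, and to -0.0785 and 0.0652 when the replicate block was added. The cause was not tested. ASNS had the fewest counts of the members, 79 to 259 a library.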
